A study of Homo sapiens with 12 samples.

Results

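Unannotated intronic lncRNA transcripts are long RNAs that the authors assembled from the RNA-Seq reads without an annotated gene and typed as intronic_lncRNA, so lying within an intron of another gene. All rows with that type were taken, which gave 4287 of the 5540 transcripts in the authors' table of unannotated lncRNAs, at 3690 loci. The other rows were 1082 intergenic transcripts (typed lincRNA) and 171 antisense transcripts. Cells labelled HEL, an established human erythroleukaemia line, were treated with DMAG at 40 µg/ml for 3 days or were controls, with 3 RNA-Seq libraries in each group. DMAG is a glucoside of a methylated ellagic acid from the burnet Sanguisorba officinalis, and whether the controls received its vehicle is not given in the sources used here. Both groups were grown in the same serum-containing medium, and the labels name no genetic change in either. Ribosomal RNA was removed before library construction and the protocol names no poly(A) selection, so RNA without a poly(A) tail could be read. The labels do not say that the libraries came from separate cultures, so a p-value here measures only the spread between these libraries, which may be technical.

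Introns are copied into RNA with the rest of a gene and removed by the spliceosome, mostly while the gene is still being transcribed. The removed intron is a looped lariat, which the enzyme DBR1 opens and the nuclear exosome and other nucleases degrade. RNA read within an intron can therefore be a separate noncoding transcript, a stretch of unspliced precursor or a removed intron that has lasted, and short-read assembly does not separate these by itself. Libraries of total RNA hold more such RNA than libraries of poly(A) RNA.

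Levels are in FPKM, fragments per kilobase of transcript scaled to the sequenced fragments, as the authors deposited them. The number of reads behind a value is unknown, as is the set of libraries that the assembly used. The labelled line was checked against lineage markers in the mRNA table. Of 17 erythroid and megakaryocytic markers, 4 averaged at least 1 FPKM, or 2 (TFRC and EPOR) without DMAG replicate 3, GATA1 reached at most 0.142 FPKM, and GP9 was listed at 0 in each of the 6 libraries. All 7 promyelocytic and granulocytic markers were above that level, and their FPKM added up to 2467 to 2601 in controls and 1679 to 1904 with DMAG. MPO, PRTN3, CTSG and ELANE were lower in each DMAG library than in any control, and CLC, CEBPE and AZU1 were higher. The 7 monocytic markers summed to 168 to 173 in controls and 430.3 to 479.8 with DMAG, nearly all of it LYZ. The 5 lymphoid markers reached 3.76 in sum and the 5 fibroblast or epithelial markers 0.181, with COL1A2 and KRT18 at 0 in every library. So most markers of the lineages for which the line is labelled were absent or near 0 while granulocytic ones were present, and the identity of the cells is in doubt. DMAG replicate 3 stood apart with adult globin mRNA, HBB being at 1367 FPKM there and at most 0.0731 elsewhere. Its part in the results below was not tested beyond leaving that library out.

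Most intronic transcripts were low. Their mean over the 6 libraries had a median of 0.364 FPKM, an upper quartile of 0.575 FPKM and a highest value of 53.0 FPKM, and 411 reached 1 FPKM. Annotated sense-intronic transcripts, 357 rows of the annotated lncRNA table and the nearest annotated class, had a median of 1.48 FPKM and 241 rows at 1 FPKM or more. Most intronic transcripts stood alone at their locus. Of 3663 loci that held this type only, 3169 had 1 transcript, 416 had 2, 62 had 3, 11 had 4 and 5 had 5. Another 27 loci held 31 intronic transcripts beside intergenic or antisense ones.

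Summed over the class, intronic transcripts were lower with DMAG. The control libraries 1, 2 and 3 had sums of 3529.7, 3278 and 2977 FPKM, and the DMAG libraries 2177, 1697 and 2528. The groups did not overlap, DMAG replicate 2 was the lowest library, and DMAG replicate 3, the highest of its group, was still below the lowest control. The means were 3262 ± 277 in controls and 2134 ± 417 FPKM with DMAG (SD, n = 3), 1.53-fold lower and a difference of -0.63 on the log2 scale (exact permutation test, 2-sided, p = 0.10, the smallest that 3 against 3 allows). Without DMAG replicate 3 the log2 difference was -0.76 and without DMAG replicate 2 it was -0.47. In bulk RNA, fewer cells that hold these transcripts and less of this RNA per cell cannot be told apart.

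The lower sum did not rest on a few abundant transcripts. The 10 most abundant carried 11.9% to 12.5% of the class sum in controls and 11.5% to 11.9% with DMAG, and without them the sum was 2861 ± 233 and 1884 ± 372 FPKM. The median transcript with a mean of at least 0.1 FPKM had 0.531, 0.4896 and 0.443 FPKM in control replicates 1 to 3 and 0.315, 0.232 and 0.362 in the DMAG ones, again without overlap.

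**Figure D1:**
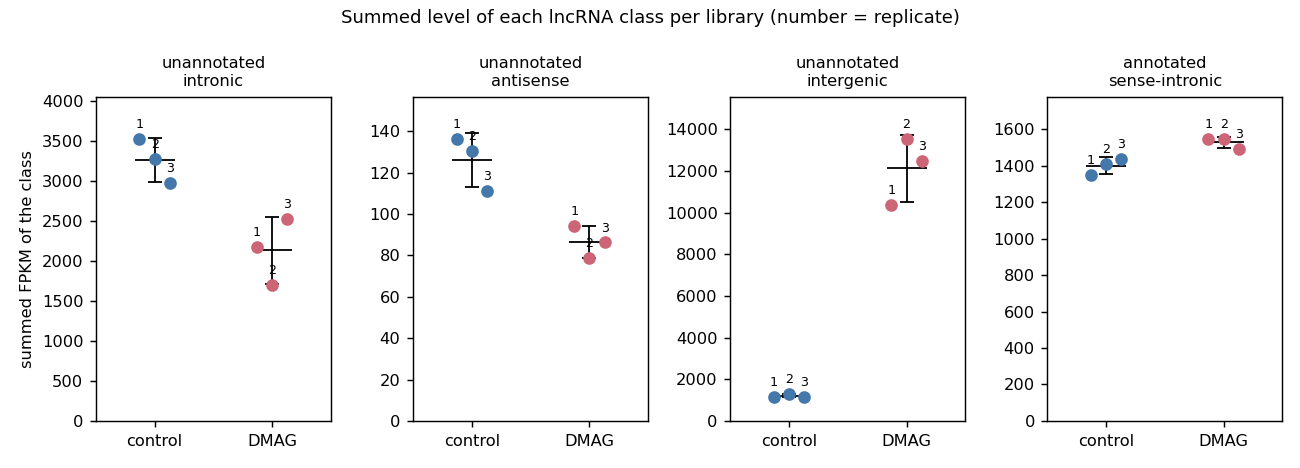
Summed FPKM of 4 lncRNA classes (vertical axes, linear from 0, each panel on its own scale) in 3 control and 3 DMAG libraries (points, numbered by replicate), with the mean and SD in black. The 3 intronic sums of the DMAG group (1697 to 2528 FPKM) all lie below those of the control group (2977 to 3529.7). The same holds for the unannotated antisense sums (78.9 to 94.1 FPKM with DMAG, 111.2 to 136.3 in controls). The unannotated intergenic sum is higher with DMAG and the annotated sense-intronic sum is slightly higher.

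The other classes of the same libraries were compared by the ratio of sums within a library, which cancels a scaling shared by both. Whether the annotated, unannotated and mRNA tables were scaled together is not given in the sources used here. Unannotated intergenic transcripts went the other way, with a sum of 1207 ± 75.3 FPKM in controls and 12129.9 ± 1605 with DMAG. The log2 ratio of the intronic to the intergenic sum was 1.43 ± 0.142 in controls and -2.52 ± 0.415 with DMAG, a difference of -3.95, or -1.69 without the 5 most abundant intergenic loci. The sum of annotated sense-intronic transcripts was 1399.6 ± 46.1 FPKM in the control group and 1529 ± 31.7 in the DMAG group. The log2 ratio of the intronic sum to theirs was 1.22 ± 0.169 and 0.46 ± 0.314 in turn, a difference of -0.76 with no overlap of the groups. Against the mRNA sum of 354252 ± 4715 and 330245 ± 2379.6 FPKM the difference was -0.53. Each of these 4 comparisons had an exact permutation p = 0.10, and 0.125 after Benjamini-Hochberg adjustment over the 5 ratios computed.

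The fifth ratio, to unannotated antisense transcripts, did not separate the groups. The antisense sum was 126 ± 13.1 FPKM in controls and 86.4 ± 7.63 with DMAG, 1.46-fold lower. The log2 ratio of the intronic to the antisense sum was 4.65 to 4.74 in the control libraries and 4.43 to 4.87 in the DMAG libraries (difference -0.09, exact permutation p = 0.60).

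Change was next tested for each transcript with limma on log2(FPKM + 0.1), fitted and adjusted over all 5307 unannotated transcripts with a mean of at least 0.1 FPKM. A log2 change on this scale understates the change of low transcripts. Of the 4287 intronic transcripts 4132 were tested, 30 were lower with DMAG, 1 was higher and 4101 did not pass at an adjusted p under 0.05. Of all unannotated transcripts tested, 0.66% were called lower and 1.47% higher (2.13% in all). Of these calls, 30 of the 35 lower and 1 of the 78 higher were intronic, where 4132 of the 5307 transcripts tested were intronic. In the separate fit of the annotated table, 8 of 353 sense-intronic transcripts were called lower and 31 higher, where over all annotated transcripts tested it was 3.42% and 12.7%. At an unadjusted p under 0.05 there were 727 lower and 40 higher intronic transcripts (all unannotated 15.2% and 5.2%). The median log2 change of the tested intronic transcripts was -0.57, with quartiles of -0.99 and -0.05, against -0.44 for all unannotated transcripts, 0.45 for intergenic, -0.11 for antisense and 0.12 for annotated sense-intronic ones. After the libraries were shifted to the same median, a scaling in which most of the transcripts that set it are intronic, the intronic median was -0.14 and the calls were 8 lower and 6 higher (all unannotated 0.207% and 2.15%).

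The number of calls depended on single libraries and on the transcripts fitted together. Without control replicate 1, 2 or 3 there were 5, 3 or 7 calls in place of 31, and without DMAG replicate 1, 2 or 3 there were 6, 4 or 28. The share called over all unannotated transcripts was not computed for these fits, so the counts cannot be set against it. Fitted without the intergenic and antisense transcripts, the same values gave 65 lower and 4 higher, which included the 31. With only transcripts of at least 0.5 FPKM tested, 70 intronic ones were lower and 2 higher (all unannotated 4.11% and 4.37%), and at 1 FPKM 84 and 3 (12.5% and 10.1%). Intergenic transcripts of at least 5 FPKM had a median SD within groups of 1.21 on the log2 scale. It was 0.27 for the 37 intronic ones of that level. Both classes share the trend of spread in the whole-table fit, and its part in the number of calls was not tested.

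**Figure D2:**
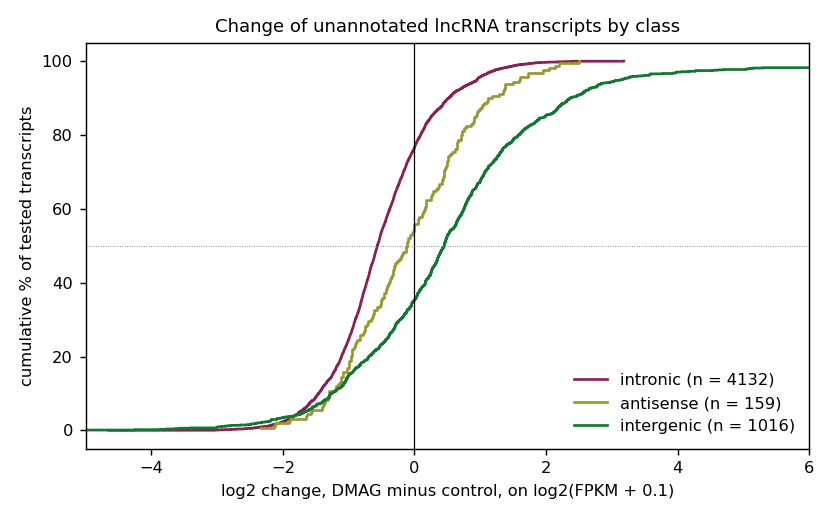
Cumulative percentage of tested unannotated transcripts (vertical axis) against the log2 change, DMAG minus control, on log2(FPKM + 0.1) (horizontal axis, shown from -5 to 6) for intronic, antisense and intergenic transcripts. The intronic curve crosses 50% at -0.57 and the intergenic curve at 0.45.

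Counts of transcripts whose 3 DMAG values all lay below or all above the 3 control values need no model. Among tested intronic transcripts, 1041 (25.2%) lay wholly below and 72 (1.74%) wholly above, where over all unannotated transcripts tested it was 21.6% and 6.6%. With a mean of at least 0.5 FPKM, 581 of 1369 intronic transcripts lay wholly below and 23 wholly above (all unannotated 33.3% and 10.4%), and with at least 1 FPKM it was 213 and 12 of 411 (32.7% and 18.3%). For intergenic transcripts at any tested level it was 79 below and 260 above of 1016, and for annotated sense-intronic ones 33 and 69 of 353. Unannotated antisense ones had 24 below and 18 above of 159.

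The shift was present at each level of expression. Intronic transcripts with a mean of 0.1 to 0.25 FPKM had a median log2 change of -0.41 (1108 transcripts, 62.8% below 0). It was -0.55 at 0.25 to 0.5 FPKM, -0.60 at 0.5 to 1 FPKM, -0.69 at 1 to 2 and 2 to 5 FPKM, and -0.69 at 5 FPKM and above, where 33 of 37 were below 0. The noise was largest at the low end, with a median SD within groups of 1.09 on the log2 scale at 0.1 to 0.25 FPKM and 0.34 at 1 to 2 FPKM, and no transcript of the lowest range was called. Annotated sense-intronic transcripts of 1 to 2 FPKM had a median log2 change of 0.08 and intergenic ones of 0.57.

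Among 410 intronic transcripts with a mean of at least 1 FPKM and a control value, the ratio of the DMAG to the control mean had a median of 0.608, with quartiles of 0.496 and 0.776, and 365 were below 1. Only 6 reached a ratio of 2 or more, while 104 were at 0.5 or less. Taken by library against the control mean, the median ratio was 1.08, 1.01 and 0.901 in the controls and 0.622, 0.493 and 0.733 in DMAG replicates 1, 2 and 3. The 241 sense-intronic transcripts of that level had median ratios of 1.08, 1.08 and 1.06 in the same DMAG libraries. The 9 unannotated antisense ones had 0.826, 0.648 and 0.895. Over the tested intronic transcripts with 1 lowest library, that library was DMAG replicate 2 for 43.0% of 3103, replicate 1 for 19.3% and replicate 3 for 15.2%.

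**Figure D3:**
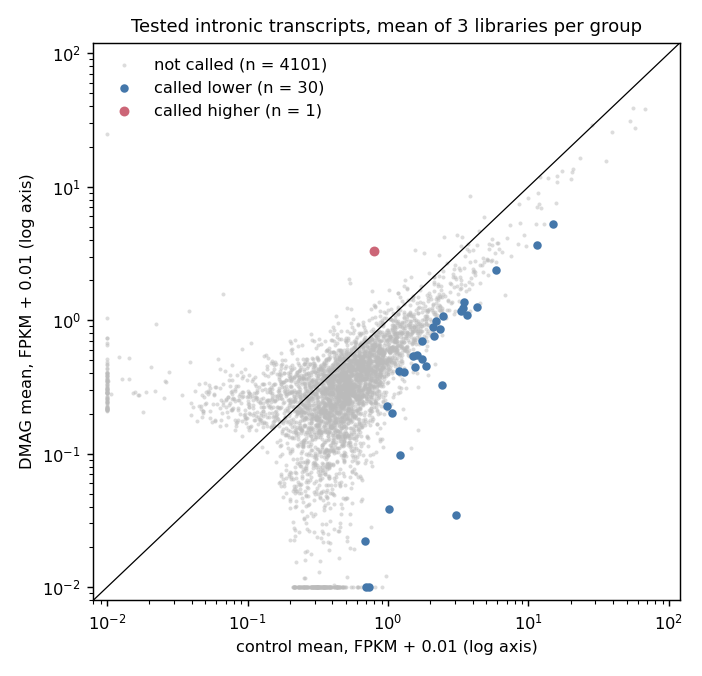
Mean of the 3 DMAG libraries against the mean of the 3 control libraries for the 4132 tested intronic transcripts, both as FPKM + 0.01 on log axes, with the line of equality. Most points lie below the line, with the 30 called lower in blue and the 1 called higher in red. The lone grey point at the upper left is LNC_000882, which was above 0 in DMAG replicate 3 only.

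Transcripts are known here only by the authors' identifiers, and host genes, positions and sequences were not used here. On the log2(FPKM + 0.1) scale the largest called fall was that of LNC_000915 at locus XLOC_018001, while transcripts listed at 0 with DMAG have no finite fold. Control replicates 1 to 3 held 3.01, 3.64 and 2.52 FPKM and DMAG replicates 1 to 3 held 0.0142, 0.0314 and 0.0294, the order used from here on. Each DMAG value was near 0 while each control exceeded 2 FPKM, 122-fold apart in the means (log2 change -4.64, SE 0.317, limma adjusted p = 5.3e-04). Leaving out any 1 library kept the call (adjusted p between 0.0064 and 0.021). The locus holds 2 transcripts, and their summed FPKM was 5.61-fold lower (limma adjusted p = 0.015). LNC_005205 had close values within each group, at 2.48, 2.47 and 2.30 FPKM in controls and 0.309, 0.315 and 0.323 with DMAG. It fell 7.66-fold (log2 change -2.60, SE 0.236, adjusted p = 0.0014; 0.0084 to 0.021 without 1 library). These were the only 2 of the 30 falls that passed in each of the 6 fits that left out 1 library.

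Some of the other named falls left a measurable level. LNC_004658 went from 1.64, 1.96 and 1.94 FPKM to 0.436, 0.397 and 0.502, a 4.16-fold fall (adjusted p = 0.0073, or 0.058 without control replicate 2). LNC_000274 went from 1.09, 1.10 and 1.01 to 0.156, 0.198 and 0.222 FPKM, and LNC_004849 from 4.63, 4.11 and 4.19 to 0.994, 0.952 and 1.78 FPKM. In these 3 the transcript stayed measurable with DMAG at a fraction of the control level. The last 2 passed only without DMAG replicate 3 when 1 library was left out.

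The remaining named falls were of transcripts that DMAG libraries listed at 0. LNC_005217 had 0.851, 0.823 and 0.4897 FPKM in controls and LNC_005515 had 0.567, 0.732 and 0.776, and both were listed at 0 in the 3 DMAG libraries. LNC_001832 had 0.760, 0.599 and 0.666 FPKM in controls and kept 0.0368 in DMAG replicate 3 alone. LNC_001903 had 1.299, 0.528 and 1.19 FPKM in controls and 0.0854 in DMAG replicate 2 alone, and LNC_000208 had 1.04, 0.918 and 1.70 FPKM and 0.264 in DMAG replicate 1 alone. With the depth unknown, a value of 0 does not separate absence from a level too low to be read. Some of these transcripts share their locus with others. XLOC_122029, the locus of LNC_005217 with 2 transcripts, kept sums of 0.797, 0.527 and 1.295 FPKM with DMAG (2.55-fold lower). XLOC_001701, the locus of LNC_000208 with 2, kept 0.837, 0.462 and 0.742 FPKM (3.11-fold lower). LNC_001832 was alone at its locus. XLOC_130541, the locus of LNC_005515, was not among the loci of intronic transcripts only that were called lower. Those loci held 29 of the 30 called falls. Whether a 0 came from the division of reads within a locus was not tested. The adjusted p of the 5 transcripts lay between 0.026 and 0.042, and each call was lost in at least 5 of the 6 fits without 1 library. All 5 calls were also lost with a pseudocount of 0.01 (adjusted p 0.077 to 0.127) and with the replicate number as a block (0.075 to 0.115).

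The other 20 falls were 2.24-fold to 4.42-fold (log2 changes -1.09 to -1.76, adjusted p 0.012 to 0.049). Control means ran from 0.967 to 14.9 FPKM and DMAG means from 0.219 to 5.24 FPKM. LNC_001620 was the most abundant of them, at 16.8, 14.8 and 12.95 FPKM in controls and 4.73, 4.64 and 6.34 with DMAG, and LNC_005080 had 12.5, 12.02 and 10.1 against 3.54, 3.22 and 4.19 FPKM. In all 30 falls the groups did not overlap, and DMAG replicate 2 was the lowest library in 14. LNC_001620 and LNC_005080 were chosen for their level after their values were seen.

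**Figure D4:**
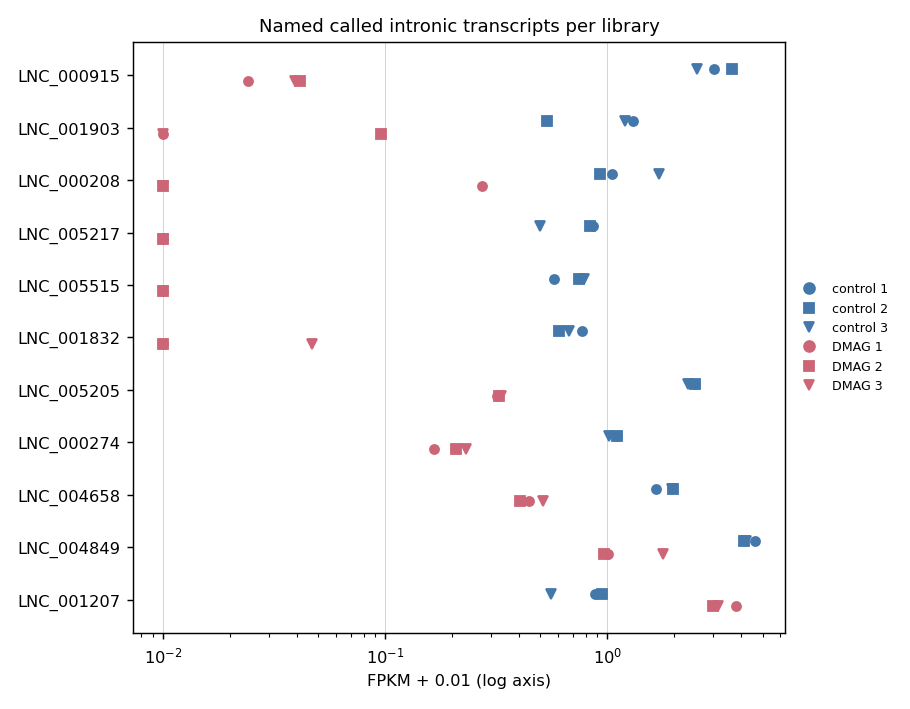
FPKM + 0.01 (log axis) of the 10 largest called falls and the 1 called rise among intronic transcripts, in 3 control (blue) and 3 DMAG (red) libraries, marked by replicate. For each the groups are apart, and points at 0.01 are libraries in which the transcript was listed at 0.

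LNC_001207 was the single intronic transcript called higher. It was at 0.867, 0.936 and 0.547 FPKM in controls and at 3.78, 2.99 and 3.15 with DMAG, so each DMAG library was above 2.9 and each control below 1 FPKM. The rise was 4.22-fold (log2 change 1.97, SE 0.262, adjusted p = 0.0072), and it missed the threshold without DMAG replicate 1 or 2 (adjusted p up to 0.068). Other transcripts were higher in each DMAG library without passing. LNC_000564 had 4.06, 4.002 and 3.34 FPKM in controls and 10.6, 5.96 and 8.94 with DMAG (adjusted p = 0.093), and LNC_004771 had 1.56, 1.32 and 1.76 against 3.52, 2.99 and 3.53 FPKM (adjusted p = 0.0503). After the shift to the same median both passed, at 0.0087 and 0.0081, and tested as loci of 1 transcript they passed at 0.014 and 0.0105.

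LNC_001470 was at 0.554, 0.798 and 0.210 FPKM in controls and 2.34, 1.19 and 2.55 with DMAG (adjusted p = 0.084, 0.023 after that shift and 0.0198 as a locus). LNC_003900 was 2.81-fold higher and LNC_005380 2.53-fold higher, with adjusted p of 0.12 and 0.30. The largest differences downward that did not pass, at a mean of 0.5 FPKM or more and without overlap, were those of LNC_004449, LNC_004882, LNC_000623, LNC_000393 and LNC_004656, 4.44-fold to 8.85-fold lower with adjusted p from 0.079 to 0.17. LNC_004449 was at 7.39, 8.04 and 5.01 FPKM in controls and at 0, 2.68 and 1.92 with DMAG, with the DMAG libraries far apart from each other. The loci of these transcripts all passed on their summed FPKM (limma adjusted p from 0.0125 to 0.048). At the 2-transcript loci of LNC_004449, LNC_004882 and LNC_004656 the sums fell less than these transcripts, 2.14-fold, 1.97-fold and 2.63-fold. The transcripts themselves were 4.44-fold, 7.43-fold and 8.85-fold lower. At the locus of LNC_000623, also with 2, the sum fell 5.47-fold (5.12-fold for the transcript), and LNC_000393 is alone at its locus. The locus of LNC_004449, XLOC_099545, holds 2 transcripts, and its sums were 7.48, 8.08 and 6.44 FPKM in controls and 3.05, 2.68 and 4.53 with DMAG.

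The most abundant intronic transcripts were lower in each DMAG library than in any control for 9 of 10, and none was called in the fit of all tested transcripts. LNC_001053 led with 75.7, 69.5 and 57.3 FPKM in controls and 40.2, 29.6 and 45.7 with DMAG, 1.75-fold lower (log2 change -0.82, SE 0.538, adjusted p = 0.41). LNC_002860 had 58.0, 56.2 and 52.9 against 40.6, 30.9 and 45.6 FPKM. LNC_002859 had 65.8, 58.8 and 47.7 against 30.5, 21.4 and 30.9 FPKM. All 3 separated the groups with DMAG replicate 2 lowest.

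LNC_004382 showed the widest gap of the 10, with 36.3, 34.4 and 35.6 FPKM in controls and 14.0, 13.9 and 18.7 with DMAG, 2.29-fold lower (adjusted p = 0.13, and 0.060 in the fit of intronic transcripts only). It passed when only transcripts of at least 0.5 or 1 FPKM were tested (0.035 and 0.014), and LNC_002859 passed at 1 FPKM (0.037). XLOC_097173, the locus of LNC_004382 with 2 transcripts, passed on its summed FPKM (2.25-fold lower, limma adjusted p = 0.0061). LNC_002807, LNC_003275, LNC_002539, LNC_004750 and LNC_001929 were 1.41-fold to 1.69-fold lower. The exception was LNC_000820, at 33.7, 28.1 and 23.3 FPKM in controls and 27.0, 21.5 and 38.8 with DMAG, whose groups overlapped. Its adjusted p was 0.99, and its log2 change of 0.01 turned to -0.22 without DMAG replicate 3 and to -0.12 without control replicate 3. In all 10 the lowest library was DMAG replicate 2. Adjusted p ranged from 0.13 to 0.99 over the 10, with 1 under an unadjusted p of 0.05.

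**Figure D5:**
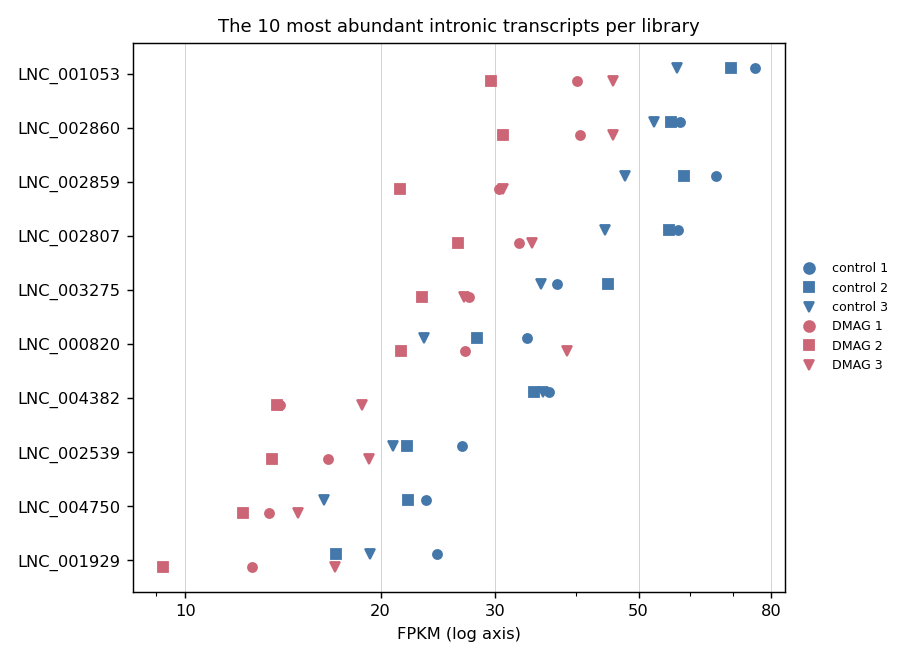
FPKM (log axis) of the 10 intronic transcripts with the highest mean, in 3 control (blue) and 3 DMAG (red) libraries, marked by replicate. Red points lie left of blue points except for LNC_000820, where DMAG replicate 3 is the highest library.

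Overlapping transcripts of 1 locus share reads, so loci were also tested by their summed FPKM. Of 3663 loci with intronic transcripts only, 3571 were tested, 176 were lower with DMAG and 6 higher, and the median log2 change was -0.56. Over all unannotated loci tested 4.28% were called lower and 2.48% higher. Of the 176 lower loci, 29 held a transcript that was itself called lower. This count also leaned on single libraries: without control replicate 1, 2 or 3 it was 10, 12 or 26 in both directions together in place of 182, and without DMAG replicate 1, 2 or 3 it was 25, 54 or 135. After the shift to the same median it was 57 lower and 23 higher. The share called over all unannotated loci was not computed for these other fits, so the counts cannot be set against it.

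Most of the lower loci held 1 transcript, and why more loci than transcripts were called was not tested. Of the 176 lower loci 107 hold 1 transcript, whose values are those of the transcript, and in 86 of these the transcript was not called in its own fit, whose estimate of the spread and number of tests differ. The other 69 hold 2 or more. At XLOC_041798, the locus of LNC_001903 with 5 transcripts, the sum went from 5.17, 4.54 and 3.63 FPKM to 1.49, 1.49 and 2.78 (adjusted p = 0.016), while the other 4 transcripts did not pass. At XLOC_067387, also with 5, the sum went from 3.73, 2.78 and 2.27 to 1.41, 1.17 and 1.56 FPKM (adjusted p = 0.025), although none of its transcripts passed alone. XLOC_072921 had 1.88 ± 0.404 and 1.14 ± 0.216 FPKM (adjusted p = 0.12). There LNC_003482 was higher in each DMAG library, at 0.381 ± 0.0368 and 0.705 ± 0.0716 FPKM (adjusted p = 0.22), against the direction of the sum.

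Of 448 intronic loci with 2 or more tested transcripts, the transcripts all had log2 changes below 0 at 217, all above 0 at 20, and lay on both sides at 211. Of the 5 loci with the highest sums, XLOC_056902, the locus of LNC_002859, passed (2.08-fold lower, adjusted p = 0.022, against 0.26 for the same values in the transcript fit). XLOC_021570, XLOC_056903, XLOC_056051 and XLOC_068025 were 1.43-fold to 1.75-fold lower with adjusted p from 0.063 to 0.18. XLOC_018001, the locus of LNC_000915, holds a second transcript, and in DMAG replicate 3 its sum was 1.97 FPKM against 0.118 and 0.147 in the other DMAG libraries.

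Fewer intronic transcripts were listed above 0 with DMAG. The numbers were 3793, 3714 and 3674 in the control libraries and 3508, 3194 and 3550 in the DMAG libraries (exact permutation p = 0.10, the smallest possible), a mean of 86.9% and 79.7% of the class. Intergenic transcripts above 0 numbered 797, 821 and 818 in controls and 884, 814 and 857 with DMAG. Detection depends on the depth, which is unknown here. Above 0 in each of the 6 libraries were 2479 intronic transcripts. In all 3 controls and no DMAG library there were 47, and in all 3 DMAG libraries and no control 11, where over the whole unannotated table these patterns made up 0.975% and 0.578% of transcripts.

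Another 162 intronic transcripts were above 0 in 1 library only, 20 to 32 per library, with a median of 0.530 to 0.609 FPKM in that library. Outside DMAG replicate 3 the highest of them was at 2.01 FPKM. In DMAG replicate 3 LNC_000882 (XLOC_016892) was at 74.8 FPKM, the highest intronic value of that library and 2.96% of its class sum, and it was listed at 0 in the other 5 libraries. This is the library with HBB at 1367 FPKM, HBA1 at 375 and HBA2 at 199.6, each at most 0.0935 elsewhere. The log2 change of LNC_000882 was 3.18 with an SE of 2.26 (adjusted p = 0.44). Without it the log2 difference of the class sums was -0.64. It was named after its values were seen.

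A list of 64 symbols of intron processing genes was read in the mRNA table, where 61 genes had a row and all were tested (limma on log2(FPKM + 1), adjusted over 10394 genes). Of these 61, 29 fell, 2 rose and 30 did not pass (24 to 30 fell and 0 to 3 rose without 1 library), and the median log2 change was -0.15, against -0.01 over all genes tested. Over all genes 26.1% were called lower and 22.4% higher. Among 10 genes grouped in this list under lariat opening and spliceosome disassembly 5 fell and none rose. The grouping is broad, and genes in it such as PRPF19 are not limited to those steps. DBR1 (ENSG00000138231), which opens lariats, was at 13.7, 13.2 and 13.7 FPKM in controls and 9.38, 9.35 and 10.01 with DMAG, a 1.41-fold fall (SE 0.0473 on the log2 scale, adjusted p = 5.8e-04). DHX15, a helicase that takes the spliceosome apart, fell 1.36-fold (adjusted p = 3.0e-04), PRPF19 1.37-fold and CWF19L1 1.22-fold.

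Of 20 genes of the nuclear exosome, its adaptors and a nuclear exonuclease, 11 fell and 1, ZFC3H1, rose. DIS3, a catalytic exosome subunit, was at 35.5, 33.7 and 35.4 FPKM in controls and 22.9, 26.4 and 21.3 with DMAG (1.48-fold, adjusted p = 0.0020). The core subunits EXOSC5 and EXOSC9 fell 1.65-fold and 1.19-fold, and TENT4B, a polymerase that tags nuclear RNA for decay, 1.21-fold. Of 31 core splicing genes 13 fell and 1, SNRPG, rose. PRPF6 went from 40.2, 42.8 and 42.6 FPKM to 28.8, 28.9 and 28.9 (1.45-fold, adjusted p = 1.7e-04), PRPF8 fell 1.31-fold, PRPF31 1.36-fold and SF1 1.23-fold. The genes are described beside the intronic transcripts because of their roles, and a relation between these genes and the transcripts was not tested. ZFC3H1 and SNRPG were named after their values were seen.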

How the data were processed

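RNA-Seq of 3 control and 3 DMAG libraries was used. The authors deposited FPKM per transcript for unannotated lncRNAs, annotated lncRNAs and mRNAs, and GRCh38, StringTie 1.3.3, HISAT2 2.0.4 and Bowtie are listed in the submitters' processing notes with no roles. How transcripts were assembled, typed and filtered is not given in the sources used here. FPKM are relative to a library's fragments, so a class that gains a large share can lower the others. Columns were matched to samples by title. The circular RNA and small RNA tables were not used here.

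The test was limma 3.58.1 under R 4.3.3 (empirical Bayes, mean trend, 2-sided), run on log2(FPKM + 0.1) for transcripts averaging 0.1 FPKM or more and on log2(FPKM + 1) for mRNA genes (transcripts summed) averaging 0.5 FPKM or more, Benjamini-Hochberg over each whole table, called under 0.05. Loci were summed over transcripts. Class sums, ratios and numbers above 0 were tested by exact permutation (scipy 1.17.1). The limma steps were tested on simulated data.

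Named were the 10 largest called falls and rises, the 10 most abundant transcripts, up to 5 uncalled differences each way at 0.5 FPKM or more without overlap, the 5 loci with the highest sums, 3 with the most transcripts, and 4 intron processing genes per role by p. Exceptions are marked. Members and lists were chosen with earlier results of these data known. Alternatives were other pseudocounts, filters, scalings and fits, blocking by replicate number and leaving out libraries 1 at a time.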

Additional observations from a re-analysis of the deposited data

How the results depend on the processing

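The class sum (log2 difference -0.47 to -0.76 without 1 library) and the number of transcripts above 0 kept their direction under each alternative run. The ratio to the intergenic sum did so too, but its size hung on the class set against it: -3.95 became -1.69 without 5 intergenic loci, -0.76 and -0.53 against sense-intronic transcripts and mRNA, and -0.09 against antisense ones. Their exact tests cannot pass 0.05. The total of 31 called intron processing genes stayed between 25 and 33, but the 2 rises were 0 with the replicate block and 0 without DMAG replicate 2. The count of 31 called intronic transcripts did not. It was 72 (2 higher, 70 lower) when only means from 0.5 FPKM were tested and 87 (3 and 84) at 1 FPKM, 69 when intronic transcripts alone were fitted, 14 without a mean trend, 14 (6 and 8) with libraries shifted to the same median, and 3 to 28 without 1 library. The first 4 test fewer transcripts or use another trend of spread, and which of these moved the count was not tested. Of the 31, 28 were also called at 0.5 FPKM, 21 at 1 FPKM and 9 after the shift. The count of 182 called loci was 291 at 0.5 FPKM, 80 after the shift and 10 to 135 without 1 library. For these alternatives the share over all loci was not computed. The share over all transcripts was not computed without a mean trend, with replicate blocking or without 1 library. The median log2 change of -0.57 was -0.19 with a pseudocount of 1, which compresses low values by construction, and -0.14 after the shift. The log2 change of LNC_000820 ran from -0.22 to 0.21 without 1 library, being -0.12 without control replicate 3 and -0.22 without DMAG replicate 3. For the other changes the cause was not tested.

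With the replicate number as a block there were 5 calls (1 higher, 4 lower), each among the 31, and 152 loci. The labels give same-numbered libraries nothing in common but the number. Deviations from the group means correlated between -0.0035 and 0.0080 over unannotated transcripts for the 3 pairs. Over mRNA genes the values were -0.0048, 0.0426 and 0.0270 for replicates 1, 2 and 3. Replicates 2 and 3 correlated best with their own number over mRNA genes, but not every library did so. Whether libraries were paired cannot be told from these values. The unknown depth limits what a value of 0 means.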
